A study of Mus musculus with 4 samples.

Results

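Open chromatin around Col1a1, Col1a2 and Col3a1, the genes of the main fibrillar collagens, was described from 4 ATAC-seq peak lists of mouse adipose progenitors. The members were set by gene and position: all deposited peaks overlapping chr11:94740000-94880000 (Col1a1), chr6:4380000-4560000 (Col1a2) or chr1:45280000-45430000 (Col3a1), on mouse build mm9. These windows held 134 of the 198854 peaks in the lists. Joining peaks that share at least 1 base gave 53 merged regions in the windows, of 83319 in all: 22 around Col1a1, 18 around Col1a2 and 13 around Col3a1.

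The progenitors came from subcutaneous fat (SAT, 2 libraries) and visceral fat (VAT, 2 libraries) of C57BL/6 mice aged 16 weeks, and all groups were untreated. In ATAC-seq a transposase inserts adapters into accessible DNA, so that pile-ups of reads, called as peaks, mark open chromatin. The labels give no sex, number of animals or sorting marker. Separate mice are not named for the libraries of a depot, and p-values therefore measure only the spread between libraries, which can be technical. Because the lists name no genes, the labelled cell type was not checked against its markers.

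Type I collagen is a triple helix of chains from Col1a1 and Col1a2 and is the main protein of connective tissue fibres. Type III collagen is built from Col3a1 chains alone and is laid down with type I in the same fibrils of soft tissues. Adipose progenitors and other fibroblast-like cells produce both, and much of their control lies in distal enhancers, of which a far-upstream one at Col1a2 is the best known.

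RefSeq promoter sequences were at hand for Col1a2 and Col3a1, that is for 2 of the 3 members, and are shown because the start sites of these co-produced collagens differ in base make-up. Each runs 5′ to 3′ over the 250 bases before the RefSeq start site on the forward strand of build GRCm38.p6, at chr6:4505368-4505617 for Col1a2 and chr1:45311288-45311537 for Col3a1. These positions belong to another build than the peaks and cannot be set beside them. Capitals mark the matches of 4 short motifs, searched on both strands: the CCAAT box by its letters CCAAT, the GC box by GGGCGG, the TATA box by TATAAA and the site of AP-1 factors by TGANTCA. No matches overlapped.
Col1a2: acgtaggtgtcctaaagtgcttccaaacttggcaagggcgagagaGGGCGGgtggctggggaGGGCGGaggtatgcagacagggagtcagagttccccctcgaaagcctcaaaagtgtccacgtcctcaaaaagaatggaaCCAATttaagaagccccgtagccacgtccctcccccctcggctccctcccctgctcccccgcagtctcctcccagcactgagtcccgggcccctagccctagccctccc
Col3a1: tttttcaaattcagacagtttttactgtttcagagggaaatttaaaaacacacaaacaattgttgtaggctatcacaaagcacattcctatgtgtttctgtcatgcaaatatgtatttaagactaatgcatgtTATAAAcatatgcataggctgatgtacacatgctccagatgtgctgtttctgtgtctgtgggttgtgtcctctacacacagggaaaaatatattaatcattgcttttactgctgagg

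The Col1a2 stretch had 62.0% G and C and 11 CpG pairs. The Col3a1 stretch had 35.2% G and C and 0 CpG pairs. Over 32851 promoters of the same length the medians were 52.4% and 6. Col1a2 held GGGCGG at 2 places, 205 to 200 and 188 to 183 bases before the start, and CCAAT at 109 to 105 bases before it. Col3a1 held TATAAA at 117 to 112 bases before the start. Of all these promoters 32.7% held GGGCGG, 33.8% CCAAT, 12.4% TATAAA and 6.75% TGANTCA, which neither stretch held. Such a match describes the letters only.

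No mm9 gene annotation was used here, so no peak is assigned to a promoter, intron or exon. Regions are named by position and by their distance from the centre of the window. The windows reach beyond the collagen genes, and some peaks may belong to neighbours. By gene order, the nearest protein-coding neighbours include Sgca beside Col1a1, Bet1 and Casd1 on the 2 sides of Col1a2, and Col5a2, another fibrillar collagen gene, beside Col3a1.

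SAT 2 stood apart in length: its list held 22845 peaks, against 56823 in SAT 1, 56907 in VAT 1 and 62279 in VAT 2. Read counts are not part of the lists. The depth is therefore unknown, and the lack of a peak is not evidence of closed chromatin. Each peak carries the authors' own score, whose scale is not given. Scores are used here as percentiles within a list, where 100 is the strongest peak.

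All 3 collagen windows held more peaks in every library than the median genome stretch of the same length. The Col1a1 window of 140 kb held 16 peaks in SAT 1, 6 in SAT 2, 14 in VAT 1 and 17 in VAT 2. The Col1a2 window of 180 kb held 15, 2, 14 and 15 in the same order. The Col3a1 window of 150 kb held 12, 3, 10 and 10. SAT 2 was the lowest in every window and the other 3 libraries lay close together.

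As background, the genome was tiled into windows of the same lengths, keeping those with at least 1 merged region. The tiles were laid without regard to genes, whereas the collagen windows were placed around chosen genes. In the median 140 kb tile, SAT 1 and VAT 1 had 3 peaks, SAT 2 had 1 and VAT 2 had 4, fewer in each library than in the Col1a1 window. Of 13363 such tiles, 0.958% had more merged regions than the 22 around Col1a1. For Col1a2, 7.06% of 11021 tiles had more than its 18 regions, and for Col3a1, 11.8% of 12707 tiles had more than its 13. Regions with a peak in all libraries numbered 5 around Col1a1, and 4.06% of tiles had more. They numbered 2 around each of Col1a2 and Col3a1, where 26.5% and 22.6% of tiles had more.

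**Figure D1:**
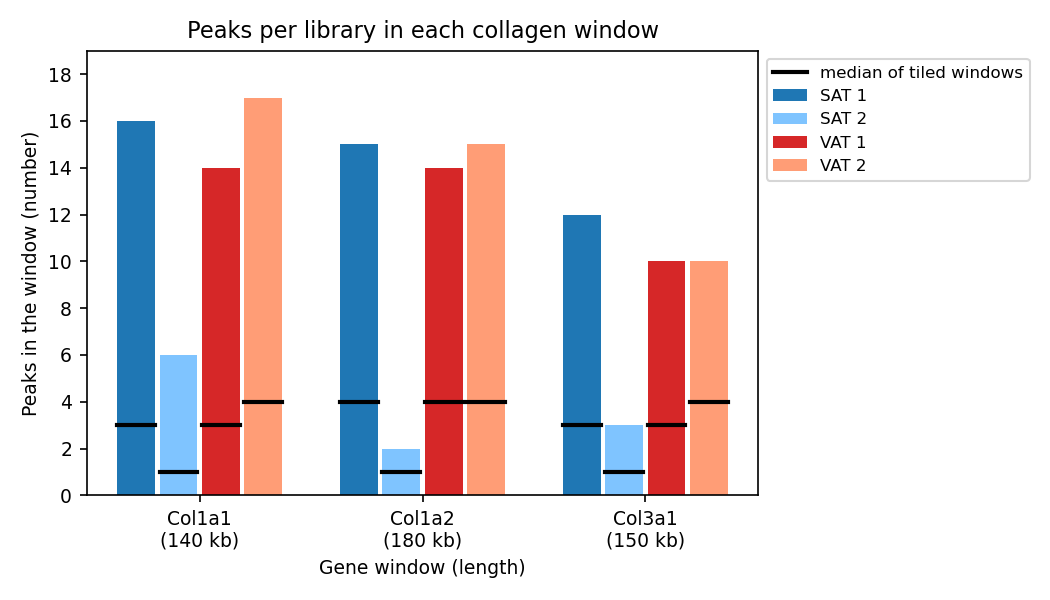
Number of peaks (y axis) in the Col1a1, Col1a2 and Col3a1 windows (x axis, with window length in kb), 1 bar per library; the black line on each bar is the median of genome tiles of that length in the same library. Every bar stands above its line, and SAT 2 has the lowest bar in each window, with 6, 2 and 3 peaks.

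Set against list length, SAT 2 was not low at Col1a1. Per 10000 peaks of the list, the Col1a1 window took 2.82 in SAT 1, 2.63 in SAT 2, 2.46 in VAT 1 and 2.73 in VAT 2. The Col1a2 window took 2.64, 0.88, 2.46 and 2.41, and the SAT 2 value of 0.88 had a 95% Clopper-Pearson interval of 0.106 to 3.16, which covers counting error only. The Col3a1 window took 2.11, 1.31, 1.76 and 1.61, with an interval of 0.271 to 3.84 for SAT 2. All other values lay inside these intervals, so a lower share of SAT 2 peaks at Col1a2 and Col3a1 was not detectable with lists of this size. Among the 22845 highest-scoring peaks of each list, the Col1a1 window held 4 in SAT 1, 6 in SAT 2, 6 in VAT 1 and 7 in VAT 2. The Col1a2 window held 5, 2, 5 and 5 in the same order, and the Col3a1 window 4, 3, 5 and 2.

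Most of the collagen regions were seen in several libraries. Of the 53 regions, 29 had a peak in 3 or more libraries (54.7%, against 43.8% of all merged regions), and 13 had a peak in 1 library only (24.5%, against 36.4%). The most frequent pattern was a peak in SAT 1, VAT 1 and VAT 2 and none in SAT 2, in 19 regions (35.8%, against 19.5%). A peak in all 4 libraries was found in 9 regions (17.0%, against 23.2%). These 9 were 195 to 666 bp wide with a median of 352 bp, against 524 bp for all regions with a peak in every library. The 13 seen once were 92 to 197 bp wide with a median of 116 bp, against 130 bp for all regions seen in 1 library.

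**Figure D2:**
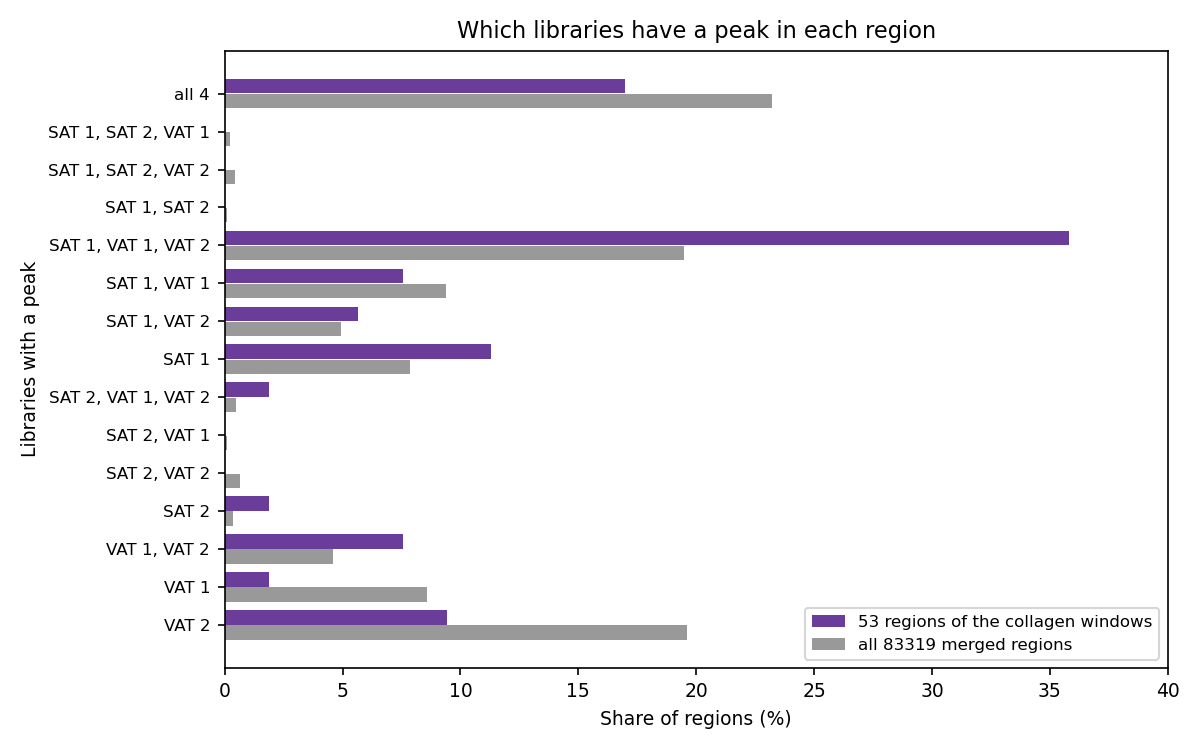
Share of regions in % (x axis) by the libraries that have a peak in them (y axis), for the 53 collagen regions (purple) and all 83319 merged regions (grey). The longest purple bar, 35.8%, is the pattern missing only from SAT 2, and no collagen region has the pattern of SAT 1 and SAT 2 alone.

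Merged regions hold overlapping peaks by construction, so their peak centres are close. In the 38 collagen regions with exactly 1 peak in each of 2 or more libraries, the peak centres of the libraries spanned a median of 46 bp, from 3 to 212 bp, against a median of 49 bp in 48439 such regions of the genome. The widest span, 212 bp, was at 94774690 to 94775272 around Col1a1, where the SAT 2 peak was 171 bp wide and the widest peak, in VAT 1, was 570 bp.

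Around Col1a1, which encodes the alpha 1 chain of type I collagen, 5 regions had a peak in every library. One lay at 94790053 to 94790480, at -19.73 kb from the window centre. Its percentile was 88.3 in SAT 1, 64.7 in SAT 2, 82.8 in VAT 1 and 86.2 in VAT 2, and it was the strongest peak of the window in SAT 1 and VAT 1. A region at 94852022 to 94852351, at 42.19 kb from the centre, stood at 76.5, 72.6, 78.5 and 86.7 in the same order and was the strongest in SAT 2 and VAT 2. The region at 94774690 to 94775272 stood at 74.1, 55.6, 74.6 and 72.4. The SAT 2 percentile was the lowest in each of these 3, but percentiles of lists of unequal length are not on the same scale. Ranked over the shared set of regions used further on, SAT 2 was the highest at 94774690 (49.2) and 94852022 (68.0). At 94790053 it lay below SAT 1 alone (59.2 against 67.7).

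The other 2 common Col1a1 regions had lower percentiles in the subcutaneous lists. The region at 94787852 to 94788105 stood at the percentile of 28.3 in SAT 1, 44.1 in SAT 2, 66.4 in VAT 1 and 77.2 in VAT 2. The region at 94797420 to 94797614 stood at 20.1, 25.8, 64.1 and 75.7. In both, the 2 visceral values lay above the 2 subcutaneous values, but percentiles of lists of unequal length are not on 1 scale. The regions are ranked over a shared set of regions further on, where SAT 2 (37.5) lay above VAT 1 (27.3) and VAT 2 (35.6) at 94787852.

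Of the 6 Col1a1 regions missing only from SAT 2, the highest was at 94840201 to 94840722, where SAT 1 stood at 69.4, VAT 1 at 75.4 and VAT 2 at 73.4. Another of the 6, at 94798231 to 94798702 (35.3, 31.4 and 69.4), lay next to the common region at 94797420. From its end at 94798702 no list had a peak for 20.6 kb, up to 94819274. The longest stretch with no peak in any list was 21.9 kb, from 94752802 to 94774689. Of the regions seen in 1 library, SAT 1 held the strongest, at 94742219 to 94742366 (56.5), and the strongest of VAT 2 was at 94851135 to 94851250 (52.5). The only one of SAT 2, at 94865570 to 94865711, stood at 0.7, near the bottom of its list.

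Around Col1a2, which encodes the partner chain of type I collagen, 2 regions had a peak in every library. The wider one, at 4455138 to 4455803, stood at the percentile of 65.1 in SAT 1, 50.7 in SAT 2, 71.8 in VAT 1 and 74.0 in VAT 2. It was the strongest Col1a2 peak of SAT 2. The one at 4438410 to 4438701 stood at 37.3, 30.2, 66.2 and 76.8, and was the strongest of VAT 2. SAT 2 had no other peak in the window.

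The strongest Col1a2 peaks of SAT 1 and VAT 1 were at regions that SAT 2 lacked. In VAT 1 it was at 4453188 to 4453422, at the percentile of 82.2, against 56.3 in SAT 1 and 61.8 in VAT 2. In SAT 1 it was at 4439439 to 4439666, at 68.4, and close to it stood VAT 1 with 68.5 and VAT 2 with 67.2. In all, 8 Col1a2 regions were missing only from SAT 2, among them the widest of the 53, at 4550731 to 4551721 and 991 bp long, which SAT 1 covered with 2 peaks. Single-library regions were weak, with at most 34.9, in VAT 2 at 4499045 to 4499150. The longest stretches with no peak in any list were 30.8 kb, from 4507973 to 4538805, and 23.5 kb, from 4457555 to 4481013.

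Around Col3a1, the type III collagen gene, 2 regions had a peak in every library. The strongest lay at 45412737 to 45413201, at 57.97 kb from the window centre, with percentiles of 88.1 in SAT 1, 28.1 in SAT 2, 83.2 in VAT 1 and 81.5 in VAT 2. Here SAT 2 alone was low. The other, at 45346949 to 45347300, was weak to middling, at 55.2, 14.6, 41.4 and 58.9.

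Of the 53 regions, 1 was missing only from SAT 1 (1.89%, against 0.468% of all merged regions), and it lay in the Col3a1 window at 45368336 to 45368564. Its percentile was 50.7 in SAT 2, 51.7 in VAT 1 and 28.5 in VAT 2, and it was the strongest Col3a1 peak of SAT 2, the shortest list. It was one of 3 SAT 2 peaks in the window. A further 5 regions were missing only from SAT 2, among them 45332885 to 45333300 with 66.3 in SAT 1, 64.9 in VAT 1 and 85.3 in VAT 2, where it was the strongest peak of the window. The region at 45420136 to 45420432 was higher in SAT 1 (83.0) and VAT 1 (72.1) and lower in VAT 2 (32.7). The first 46.4 kb of the window held no peak in any list, and a second empty stretch of 28.8 kb ran from 45378520 to 45407343.

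**Figure D3:**
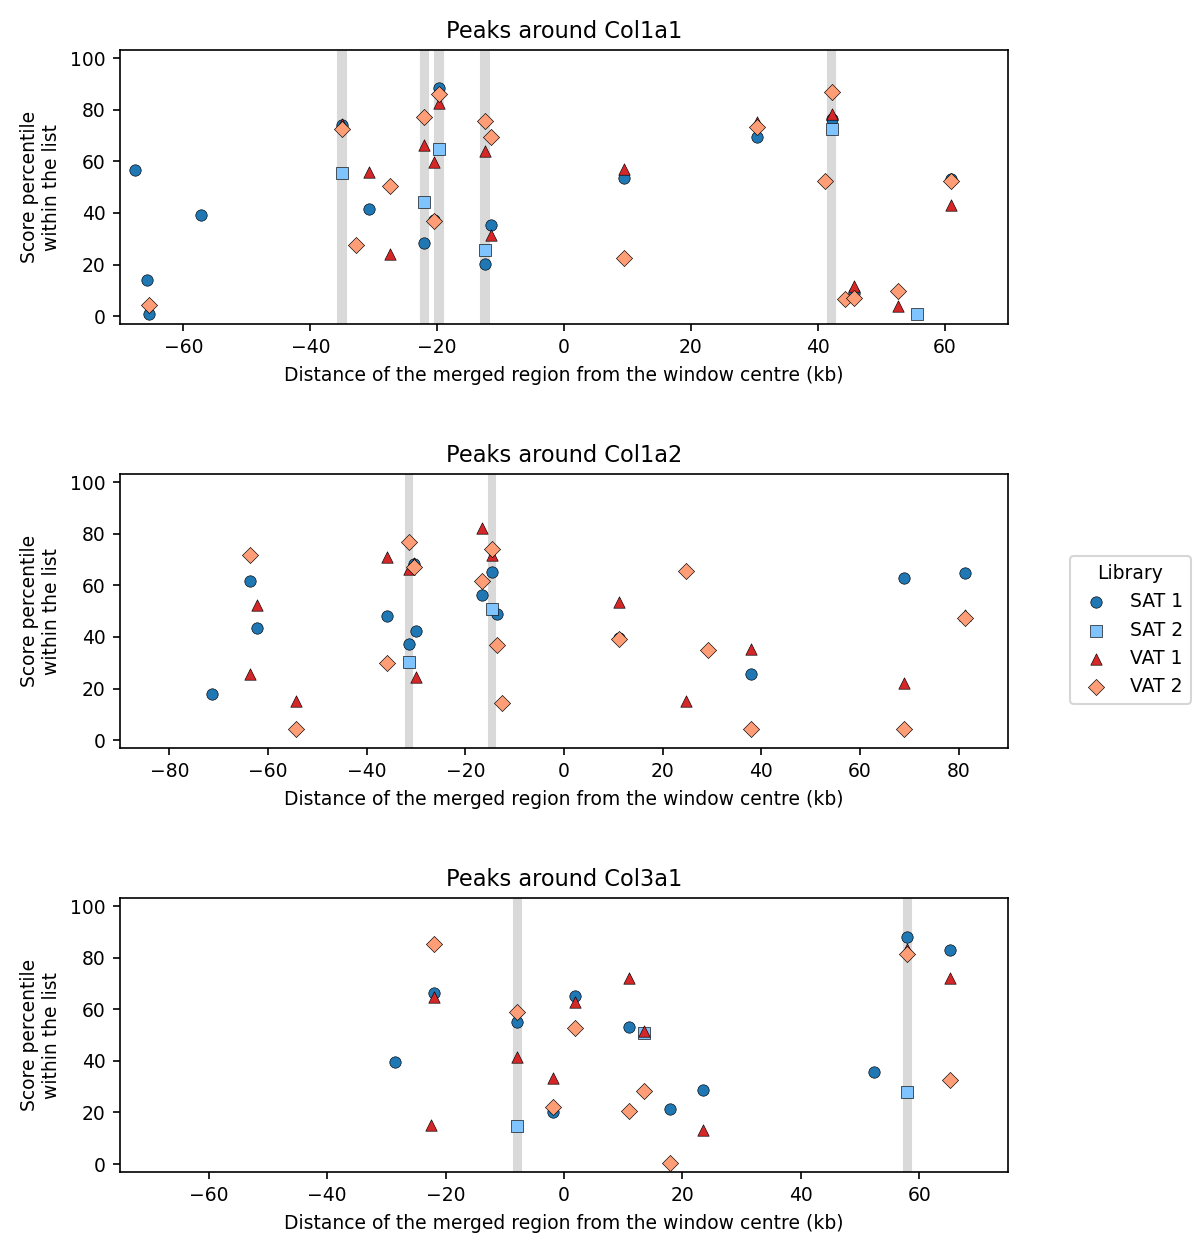
Score percentile within the list (y axis) of the strongest peak of each library (markers) in each merged region, against the distance of the region from the centre of its window in kb (x axis), for the 3 collagen windows. Grey bands mark the 9 regions with a peak in all 4 libraries; Col1a1 has 5 of them, and the SAT 2 squares fall outside the bands only at 55.64 kb in the Col1a1 and 13.45 kb in the Col3a1 window.

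The depot comparison asked whether these genes have other open sites in subcutaneous than in visceral progenitors. No region had a peak in both subcutaneous libraries and neither visceral one (0 of 53, which allows a share of up to 5.66% by counting error, against 0.110% of all merged regions). Such a region needs a peak of the short SAT 2 list, which had 11 peaks in the windows. The 0 therefore cannot be set against the visceral-restricted count. Restricted to visceral libraries were 4 regions (7.55%, against 4.60%), 2 around Col1a1, 2 around Col1a2 and 0 around Col3a1. The highest single value was in the Col1a2 window at 4494659 to 4494877, which stood at the percentile of 15.2 in VAT 1 and 65.7 in VAT 2. The Col1a1 region at 94782527 to 94782716 stood at 24.1 and 50.5. The last 2 were near the bottom of the lists: 4.0 and 9.8 at 94862486 to 94862664 around Col1a1, and 15.2 and 4.4 at 4415573 to 4415765 around Col1a2.

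The visceral-restricted count changed with list length. When each list was shortened to its 22845 highest-scoring peaks, 0 of the 53 regions were restricted to either depot. Of the 4 regions above, only that at 4494659 had 1 visceral peak, that of VAT 2, among them. In the top 50% of each list, 3 were restricted to visceral and 0 to subcutaneous libraries. By their percentiles, none of the 4 regions above was among these 3. The 3 had a peak in every full list: 94787852 and 94797420 around Col1a1, and 4438410 around Col1a2. Their subcutaneous peaks lay in the lower 50% of the lists. With the equal-length lists 24 of the 53 regions kept at least 1 peak, and 5 had one in all libraries: 3 around Col1a1, and 1 each around Col1a2 (4455138 to 4455803) and Col3a1 (45412737 to 45413201). Without SAT 1, where the short SAT 2 list alone stood for its depot, the count of visceral regions was 23. That count takes in the 19 regions missing only from SAT 2. Without VAT 1, where VAT 2 alone stood for its depot, the count was 9. Without SAT 2 it was 5, and 6 regions were then in SAT 1 alone.

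Pairs of SAT 1 with a visceral library shared about as many regions of their own, and pairs of SAT 2 with one shared none. SAT 1 and VAT 1 alone shared 4 (7.55%, against 9.37% of all merged regions), the highest of them at 94779198 to 94779349 around Col1a1, by the single value of VAT 1, with 41.5 in SAT 1 and 55.8 in VAT 1. SAT 1 and VAT 2 alone shared 3 (5.66%, against 4.93%), the highest at 4456249 to 4456446 around Col1a2, with 48.9 and 37.0. SAT 2 shared 0 regions with VAT 2 alone (0.652% of all) and 0 with VAT 1 alone (0.0960%).

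Peak numbers of the depots overlapped at Col1a1 and Col1a2, and at Col3a1 the visceral values lay between the subcutaneous ones. At Col1a1 the mean was 11 ± 7.07 peaks in subcutaneous and 15.5 ± 2.12 in visceral libraries (SD, n = 2 each; two-sided exact permutation p = 0.667). At Col1a2 it was 8.5 ± 9.19 and 14.5 ± 0.707 (exact p = 1), and at Col3a1 7.5 ± 6.36 and 10 ± 0 (exact p = 1). The smallest p that 2 libraries against 2 allow is 0.333. Without SAT 2 the visceral mean was lower than SAT 1 in all windows, by 0.5 peaks at Col1a1, 0.5 at Col1a2 and 2 at Col3a1.

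Covered lengths of the depots also overlapped at Col1a1 and Col1a2. Peaks covered 3876 bp of the Col1a1 window in SAT 1, 1017 in SAT 2, 3586 in VAT 1 and 4083 in VAT 2 (exact permutation p = 0.667). They covered 3594, 443, 3500 and 3470 bp of the Col1a2 window (exact p = 1). At Col3a1 both visceral libraries, with 3159 bp in VAT 1 and 2519 bp in VAT 2, lay above SAT 1 with 2518 bp and SAT 2 with 451 bp, but SAT 1 and VAT 2 differed by 1 bp (exact p = 0.333, the smallest possible). The Benjamini-Hochberg adjusted value was 1 for each of the 6 tests on peak number and covered length. Without SAT 2, the visceral mean at Col3a1 exceeded SAT 1 by 321 bp, against 1354 bp with it.

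Within a replicate number the direction of the peak counts differed. VAT 1 held fewer peaks than SAT 1 in each window, with differences of -2 at Col1a1, -1 at Col1a2 and -2 at Col3a1. VAT 2 held more than SAT 2, by 11, 13 and 7. Covered length at Col3a1 was larger in the visceral library of both numbers, by 641 and 2068 bp; at Col1a1 and Col1a2 the differences were -290 and -94 bp in the first and 3066 and 3027 bp in the second. The second set includes the short list, and the part of list length in it was not tested.

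To rank all libraries over 1 shared set, the 9 collagen regions with a peak in every library were ranked among the 19350 such regions of the genome. Ranks in this set (100 is the strongest) were middling to low for most collagen regions. The region at 94790053 around Col1a1 was the highest of the 9 in SAT 1, with 67.7 in SAT 1, 59.2 in SAT 2, 54.9 in VAT 1 and 57.3 in VAT 2. In VAT 1 the highest was 45412737, at 55.9, and in SAT 2 and VAT 2 it was 94852022, at 68.0 and 58.8. The region at 94790053 was the only one where both subcutaneous libraries ranked above both visceral ones (1 of 9, against 15.6% of all 19350). The lowest in SAT 2, VAT 1 and VAT 2 was at 45346949 around Col3a1, with 15.7, 10.6, 8.3 and 12.3 in the order above.

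Both visceral libraries ranked above both subcutaneous ones in 2 of the 9, against 15.0% of all 19350. These were 94797420 around Col1a1, with 2.1 in SAT 1, 20 in SAT 2, 24.7 in VAT 1 and 32.6 in VAT 2, and 4438410 around Col1a2, with 6.5, 23.9, 27.0 and 34.8. In each, SAT 2 lay closer to VAT 1 than to SAT 1. No test was run on these counts.

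The Col1a1 region at 94787852 showed the same low rank of SAT 1, at 3.9, while SAT 2 (37.5) lay above VAT 1 (27.3) and VAT 2 (35.6). SAT 1 was the lowest of the 4 libraries in 5 of the 9 regions, against 23.9% of all common regions. It was in the middle or highest in the other 4. SAT 2 was the lowest in 1 (28.7% of all), VAT 1 in 2 (23.5%) and VAT 2 in 1 (23.8%). SAT 1 thus had the largest of 4 such counts, and these were not tested. At 4455138 around Col1a2 the ranks were 24.9, 44.2, 34.8 and 29.3. At 94774690 and 94852022 around Col1a1 they were 37.8, 49.2, 39.3 and 26.9, and 42.3, 68.0, 46.3 and 58.8. SAT 2 was the highest in these 3.

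The Col3a1 region at 45412737 had the widest subcutaneous spread, with 67.2 in SAT 1 and 22.0 in SAT 2, and the visceral ranks of 55.9 and 44.8 lay between them. Its depot means were 44.6 ± 32.0 and 50.3 ± 7.8 (SD, n = 2 each). By window, the median rank was 43.5 ± 8.0 subcutaneous and 37.5 ± 2.6 visceral at Col1a1, 24.9 ± 13.0 and 31.5 ± 0.8 at Col1a2, and 28.9 ± 17.8 and 30.3 ± 2.5 at Col3a1. These differences lay within the spread of the subcutaneous libraries, and no test was run on scores. Without SAT 2 the visceral median at Col1a1 was 16.2 above that of SAT 1, where the common set is that of the other 3 libraries, against 6.1 below the subcutaneous mean with it.

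**Figure D4:**
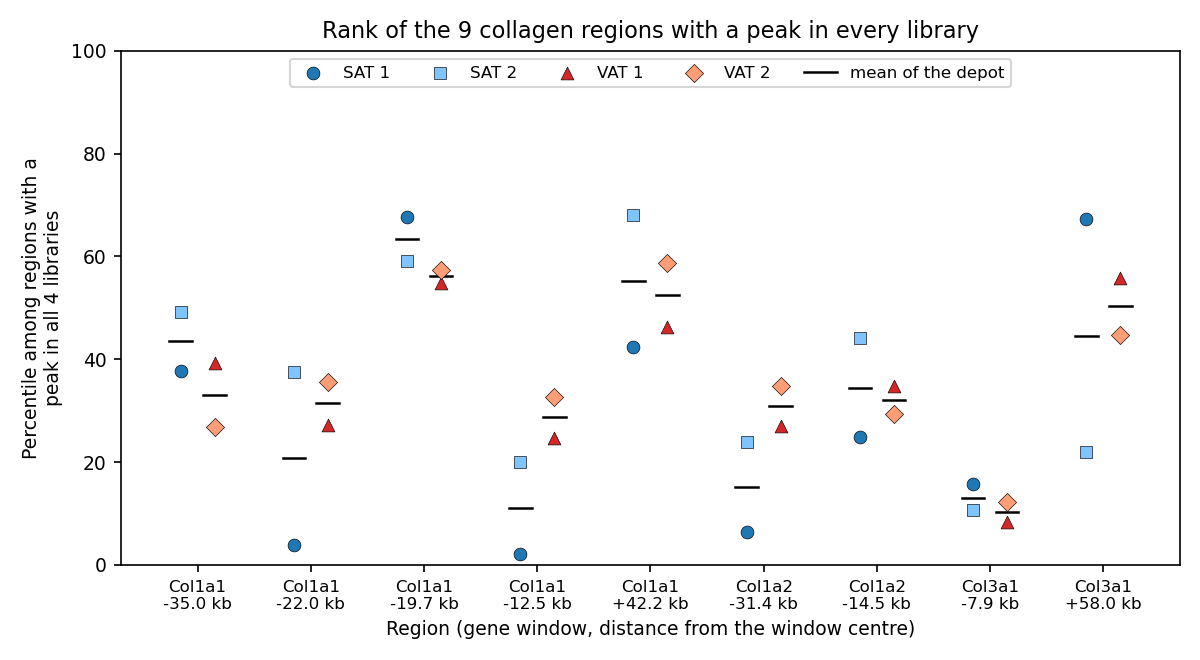
Percentile of each library (markers) among the 19350 regions with a peak in every library (y axis) for the 9 collagen regions (x axis, by gene and distance from the window centre in kb); black lines are depot means of 2 libraries. The markers of the depots overlap in 6 of the 9 regions, and SAT 1 is at 2.1, 3.9 and 6.5 in 3 of them.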

How the data were processed

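ATAC-seq libraries of adipose progenitors, 2 per depot, were grouped by the sample titles. Per the submitters' processing notes, Bowtie2 and MACS2 were used on mm9; for versions, options, duplicate handling, shifting of read ends and repeat filters: not given in the sources used here. A separate peak list was deposited for every library, with a whole-number score per peak in column 5 (scores are the authors', minimum 20 in every list).

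Peaks sharing at least 1 bp were merged. A percentile is the average rank of a score within its list (or within the regions with a peak in all 4 libraries). Positions count from 1. Window values were compared by two-sided exact permutation over libraries. The merging was checked against bedtools 2.31.1 and on simulated regions. Python 3.11.15, numpy 2.4.6, pandas 2.3.3 and scipy 1.17.1 were used.

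The members and lists were chosen with earlier results of these data known. The rule for named regions took, in each window, all regions with a peak in every library, those restricted to a depot, and the strongest of each other pattern. The text departs from this rule. It leaves some of the strongest of a pattern unnamed, and it also names 94798231, 4439439, 4550731 and 45420136. Planned parts that need an mm9 annotation (collagen pathway genes, genes with a like pattern, cell type markers) were not analysed here.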

Additional observations from a re-analysis of the deposited data

How the results depend on the processing

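The depot differences in peak number and covered length (visceral minus subcutaneous) kept their direction with equal-length lists, the top 50% of each list, 200 bp around each peak centre, peaks counted by their centre and the central 50% of each window, except that the Col3a1 peak difference was 0 with equal-length lists. Leaving out 1 library gave -0.500 to 9.50 peaks at Col1a1, -0.500 to 12.5 at Col1a2 and -2 to 7 at Col3a1, and -41.5 to 2818 bp, -109 to 3042 bp and 321 to 2388 bp covered; the negative values all came without SAT 2. Regions with a peak in all libraries numbered 3 at Col1a1, 1 at Col1a2 and 1 at Col3a1 with equal-length lists, and 3, 1 and 0 in the top 50%, where fewer peaks enter; the central 50% left 1 at Col3a1. Leaving out 1 library gave 5 to 11, 2 to 10 and 2 to 7, the highest without SAT 2. Visceral-restricted regions (4) numbered 0 with equal-length lists, 3 in the top 50% of each list and 2 in the central 50% of the windows. The 3 in the top 50% were other regions than the 4 and had a peak in every full list. With 1 library left out, visceral-restricted regions numbered 5 to 23 and subcutaneous-restricted regions 0 to 6. The difference in median rank among common regions at Col1a1 (-6.1) was -0.1 with equal-length lists, 4.6 in the top 50% and 1.6 in the central 50%, and at Col1a2 (6.6) it was -5.1 with equal-length lists; the cause was not tested. Leaving out 1 library gave -11.4 to 16.2 at Col1a1, -3.3 to 7.3 at Col1a2 and -9.2 to 3.3 at Col3a1. In the top 50% the Col3a1 window had no common region and gave no value. Merging within 500 bp and a 50% reciprocal overlap moved no count by over 1.5 times.

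With replicate number as a block, the differences are the same by construction (4.50, 6 and 2.50 peaks), with exact sign-flip p = 1 in each window; for covered length p was 1, 1 and 0.5, and 0.5 is the smallest possible for 2 pairs. The numbers are not stated to pair the samples; over 19350 common regions the deviations of same-numbered libraries had a correlation of 0.22.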
